A study of Mus musculus with 4 samples.

Results

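The set described here holds 39 of the 16442 genes measured in mouse leukaemia stem cells, selected on their RNA. The rule asked for an RPKM of at least 5 in input RNA in both WT libraries. It also asked for an RPKM under 1 in both libraries grouped as Rreb1 knockout (KO). RPKM relates reads to the length of the gene and to the size of the library, so it can be set side by side between genes. It was obtained from the deposited table as the ribosome footprint value divided by the translational efficiency, with 1 taken off. Of the 6623 genes with at least 5 RPKM in both WT libraries, 42 met both thresholds, and 3 of these (Ldhb, Hnmt and Ccnd1) were left out by the selection rule, as was Dnajb4, which did not meet the thresholds. The mirror image, at least 5 RPKM in both KO-labelled and under 1 RPKM in both WT libraries, was met by 95 genes. Because these RNA values chose the genes, the RNA difference is a description with no test, and so are the footprint and efficiency differences, which come from the same libraries.

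There were 4 libraries, 2 grouped as Rreb1-KO and 2 as WT, all of bone marrow of leukaemic C57BL/6 mice. Leukaemia stem cells, the cells that propagate the disease, had been isolated from it. The second KO library is titled KO but its genotype field reads Rreb2-KO. Ribosome profiling sequences the pieces of mRNA that ribosomes protect from a nuclease, and RNA from an undigested portion of the same lysates served as input. The design text speaks of biological replicates; the animals behind them, the driver of the leukaemia and the deleted part of Rreb1 are not given in the sources used here.

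Rreb1, a zinc finger transcription factor, did not itself bear out the labels by level. Its RNA was 6.10 and 6.93 RPKM in the KO-labelled libraries and 3.33 and 3.25 RPKM in WT, and its footprints were 12.9 and 8.19 RPKM in the KO-labelled libraries against 14.1 and 12.8 RPKM in WT. The values cover the whole gene, so they do not settle the genotype, and the libraries are called KO-labelled throughout. Assigned footprint reads were 364087 and 274183 in the KO-labelled libraries and 878068 and 656249 in WT, whereas input RNA reads lay between 17037493 and 19121998 in all 4. One footprint read in a coding sequence of 1 kilobase is therefore worth 2.75 and 3.65 RPKM in the KO-labelled libraries and 1.14 and 1.52 RPKM in WT. Among 6390 genes tested in footprints, replicates correlated across genes with r = 0.782 for the KO-labelled and 0.940 for the WT libraries in footprints and with 0.996 and 0.997 in RNA, where genes are not independent replicates.

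A protein is made from an mRNA at a rate that depends on how much of the mRNA there is and on how many ribosomes each copy carries. Footprints count the product of the 2, and translational efficiency (TE) is footprints divided by RNA. When a gene's RNA is nearly gone, few footprints can arise and TE becomes a ratio of small numbers. The set spans many functions: 7 receptors and secreted or surface immune proteins, 5 enzymes, 3 transporters and channels, 10 proteins of the cytoskeleton, scaffolds, trafficking and matrix, 4 regulators of cell cycle, transcription and signalling, 4 other coding genes, and 6 genes that are non-coding or unannotated. RefSeq lists 33 of them as protein coding, 4 as lncRNA and 1 as snoRNA, and 1, Gm13431, was not matched.

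Across the set RNA was low in KO-labelled cells but seldom absent. Mean RNA had a median over the 39 genes of 0.472 RPKM in KO-labelled cells and 7.82 RPKM in WT cells, with ranges of 0 to 0.937 and 5.48 to 22.4 RPKM. Reads of 35 genes were found in both KO-labelled libraries and of 3 more (Ace, Hes7 and Gm13710) in 1 of them, and 27 genes had at least 20 RNA reads there in all. Only Gm21297 had no RNA read in either KO-labelled library, so the working description of RNA found in WT cells alone holds literally for 1 of 39 genes. Over the 38 others, the ratio of pooled RNA reads, scaled by library size, WT over KO-labelled, ran from 7.77 to 348 with a median of 21.9. In bulk RNA of this kind, fewer cells of a type and less RNA per cell cannot be told apart.

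**Figure D1:**
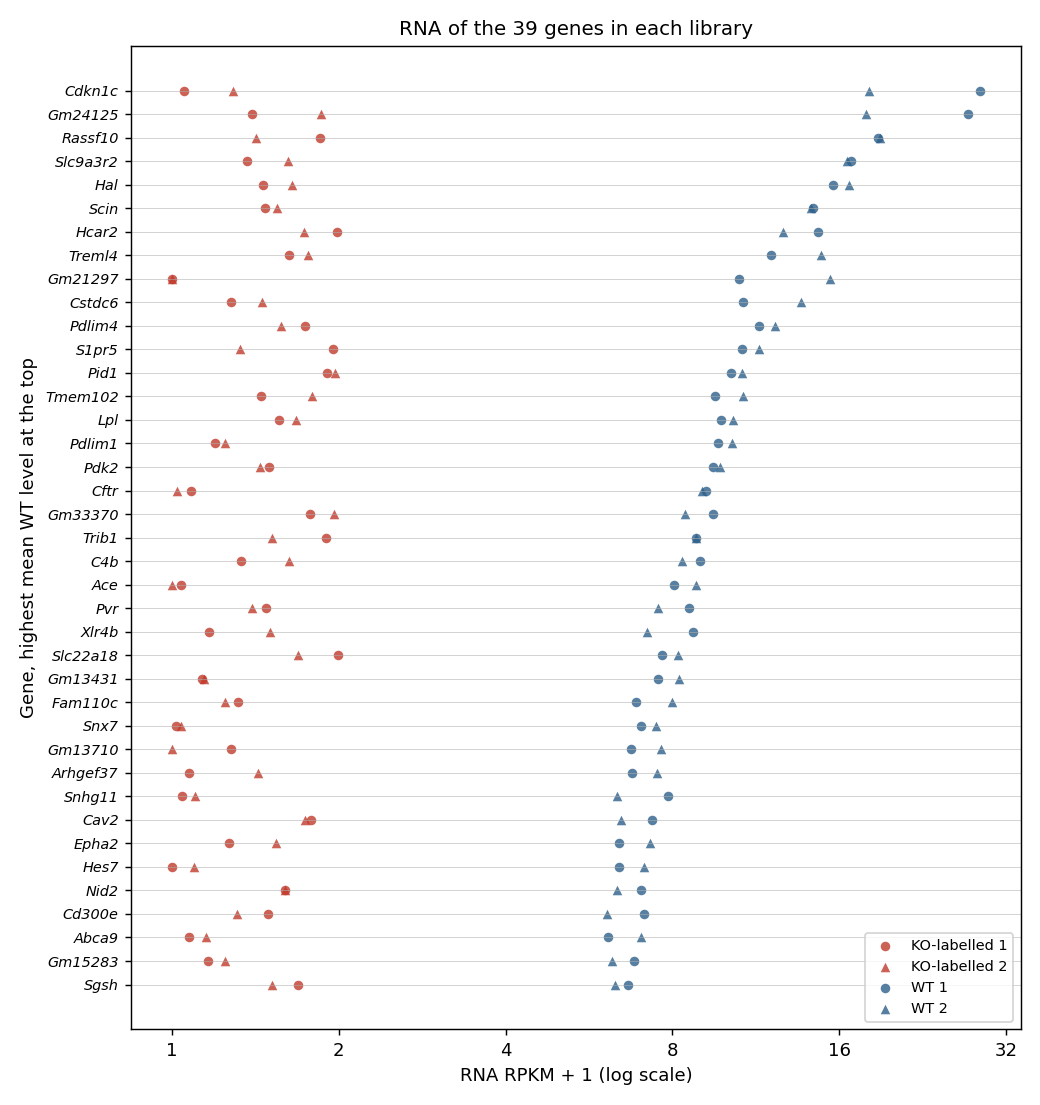
RNA of each of the 39 genes in 4 libraries, as RPKM + 1 on a log axis, with KO-labelled libraries in red and WT in blue and circles and triangles for replicates 1 and 2. All KO-labelled points lie below 2 and all WT points above 6, as the selection fixed, and the WT replicates of Cdkn1c and Gm24125 stand furthest apart.

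The thresholds cut through a continuum. The genes nearest the WT threshold on the inside were Cd300e, Abca9, Gm15283, Sgsh and Snhg11, with lower WT values of 5.09 to 5.36 RPKM. Just outside were E430024P14Rik, Il1rl2, Sulf2, Gm6522 and Slc44a4, with lower WT values of 4.41 to 4.73 RPKM. Nearest the KO threshold on the inside were Slc22a18, Hcar2, Pid1, Gm33370 and S1pr5, at 0.955 to 0.991 RPKM in the higher KO-labelled library, and just outside were Slc13a3, Sgms1, Afap1l1 and Csta3, at 1.01 to 1.11 RPKM.

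Footprints were found for 31 of the 39 genes, for 30 of them in both WT libraries. Of these 31 genes, 18 had no footprint read in either KO-labelled library, 13 had at least 1, and 6 (Abca9, C4b, Epha2, Hal, Lpl and Nid2) had reads in both. Summed over the set there were 27 and 25 footprint reads in the KO-labelled libraries and 1654 and 1155 in WT, which is 74.2 and 91.2 CPM (reads scaled by the assigned reads of the library) against 1880 and 1760 CPM. The pooled rate was 22.5 times higher in WT, with an exact 95% interval of 17.1 to 30.2. Intervals here and below cover counting error only, and reads are not known to be independent molecules. In RNA the same 31 genes were 19.4 times higher in WT (95% interval 18.5 to 20.2). Added up, both measures differed between the groups by ratios of like size.

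Both KO-labelled footprint values lay below both WT values in 28 of the 31 genes, beside 28.7% of the 11151 genes with any footprint read. The exceptions were Hes7, Pdk2 and Cd300e, each with 1 to 8 footprint reads in all 4 libraries together. Enough footprint reads for the fit across genes (at least 20 CPM in at least 2 libraries) were present for 12 of the 39, all of them through WT. With limma on log2(RPKM + 1) and a Benjamini-Hochberg adjusted p under 0.05, 6 of the 12 were called lower (Abca9, Arhgef37, Cftr, Hal, Lpl and Scin), beside 0.469% of all 6390 genes tested. With either WT library left out 0 of the 12 were called, and with KO replicate 2 left out 10 were. As the selection used RNA of the same libraries, nothing is read from these counts.

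**Figure D2:**
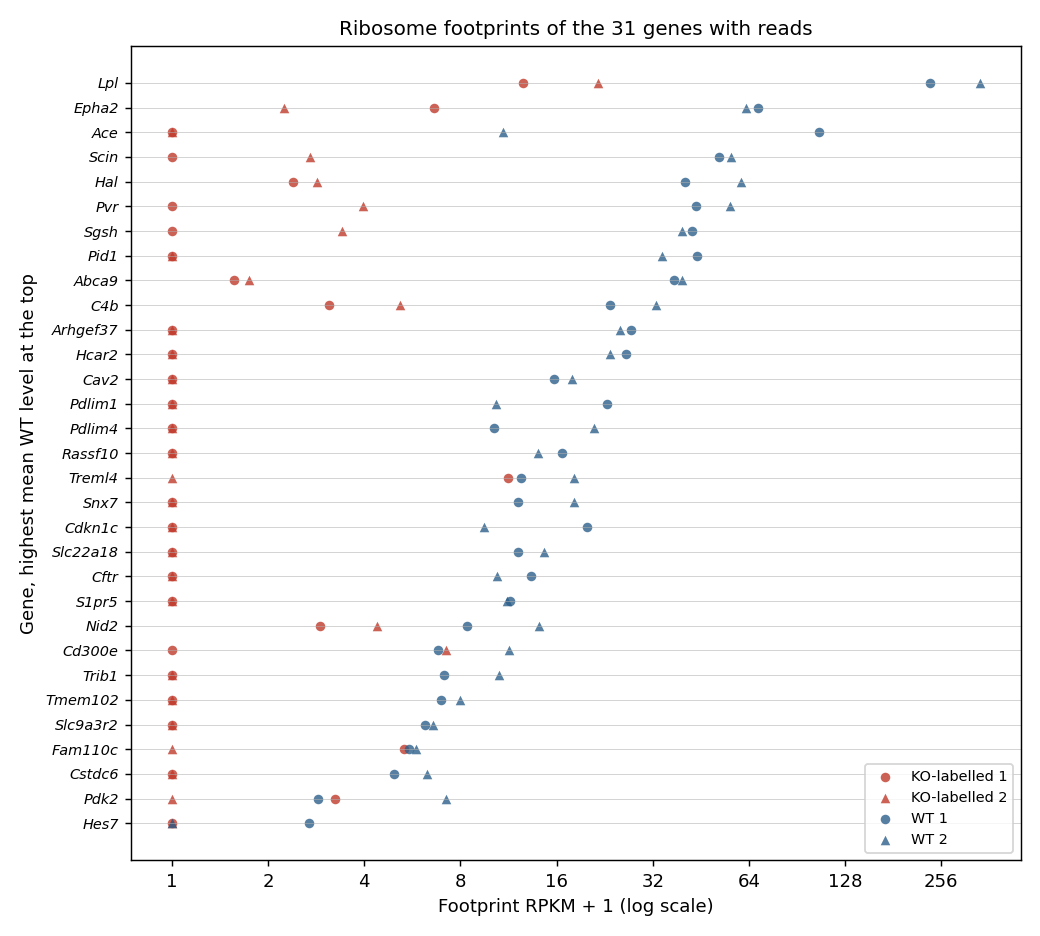
Footprints of the 31 genes with reads, as RPKM + 1 on a log axis, where a value of 1 means no read. KO-labelled libraries (red) lie at 1 for 18 genes in both replicates, and Lpl keeps the highest KO-labelled level of the set, 11.6 and 20.5 RPKM.

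Of the 7 receptors and secreted or surface immune proteins, 5 had at least 1 footprint read in KO-labelled cells. Epha2, a receptor tyrosine kinase for ephrin-A ligands, had RNA of 0.267 and 0.540 RPKM in KO-labelled cells and 5.40 and 6.28 RPKM in WT. Its footprints were 5.62 and 1.24 RPKM in KO-labelled cells, from 6 and 1 reads, against 67.2 and 61.9 RPKM in WT, from 173 and 119 reads. The groups did not overlap, and pooled reads were 17.4 times as frequent in WT (exact 95% interval 8.32 to 43.5). The log2 difference in footprints was -4.09 ± 0.61 (SE, n = 2 each).

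Hcar2, a G protein-coupled receptor for niacin and the ketone body beta-hydroxybutyrate, had RNA of 0.984 and 0.730 RPKM in KO-labelled cells and 13.6 and 11.6 RPKM in WT. Its footprints were 0 and 0 RPKM in KO-labelled cells and 25.3 and 22.6 RPKM in WT. These WT values match 3 and 2 reads over an implied coding length of 135 bases, the smallest whole reads that fit, so that the true reads may be a common multiple and no fold is given. S1pr5, a receptor for sphingosine 1-phosphate that guides the egress of natural killer cells and monocytes, had RNA of 0.955 and 0.329 RPKM in KO-labelled cells and 9.69 and 10.5 RPKM in WT. It had no footprint read in KO-labelled cells and 11 and 8 reads in WT, that is 10.4 and 10.2 RPKM, at least 2.63-fold lower in the KO-labelled libraries against a floor of 3 reads pooled over both. For both receptors the WT replicates lay close together and the KO-labelled ones had none.

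Cd300e and Treml4 encode myeloid receptors that signal through an adaptor with activating motifs. Treml4 RNA was 0.625 and 0.764 RPKM in KO-labelled cells and 11.02 and 13.8 RPKM in WT, and its footprints were 10.3 and 0 RPKM in KO-labelled cells, from 3 and 0 reads, against 11.4 and 17.1 RPKM in WT, from 8 and 9 reads. Here a KO-labelled library came close to WT in footprints, on 3 reads, and the WT over KO ratio of 2.36 had an exact 95% interval of 0.682 to 12.6. RNA of Cd300e was 0.494 and 0.309 RPKM in KO-labelled cells and 6.11 and 5.09 RPKM in WT, with 0 and 1 footprint reads in KO-labelled cells and 3 and 4 in WT, too few to separate the groups.

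Pvr (CD155), a nectin-like adhesion protein and ligand of lymphocyte receptors, had RNA of 0.479 and 0.393 RPKM in KO-labelled cells and 7.55 and 6.53 RPKM in WT. Its footprints were 0 and 2.98 RPKM in KO-labelled cells, from 0 and 1 reads, against 42.8 and 54.8 RPKM in WT, from 46 and 44 reads. C4b, a complement component whose cleavage leads to the C3 convertase, had RNA of 0.334 and 0.629 RPKM in KO-labelled cells and 7.97 and 7.32 RPKM in WT. In Pvr the groups did not overlap, and likewise in C4b. Footprints of C4b were 2.103 and 4.19 RPKM in KO-labelled cells, from 4 and 6 reads, against 22.5 and 31.8 RPKM in WT, from 103 and 109 reads, a WT over KO ratio of 8.82 (exact 95% interval 4.70 to 18.7). C4b has a near-identical copy in the genome, so the split of its reads is uncertain.

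Among the enzymes Lpl, the lipase that releases fatty acids from lipoproteins, had the highest footprint RPKM and the highest deposited TE in WT of the set. Its RNA was 0.560 and 0.678 RPKM in KO-labelled cells and 8.77 and 9.28 RPKM in WT. Footprints were 11.6 and 20.5 RPKM in KO-labelled cells, from 6 and 8 reads, against 235.5 and 338 RPKM in WT, from 294 and 315 reads. The 2 groups stood far apart, with a WT over KO ratio of 18.1 (exact 95% interval 10.7 to 33.3) and a log2 difference of -4.10 ± 0.41 (SE, n = 2 each).

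Hal, histidine ammonia-lyase, the first step of histidine breakdown, had RNA of 0.460 and 0.645 RPKM in KO-labelled cells and 14.6 and 15.7 RPKM in WT. Its footprints were 1.39 and 1.85 RPKM in KO-labelled cells, 1 read in each library, against 39.3 and 59.5 RPKM in WT, from 68 and 77 reads. Groups were separated in both measures, and pooled footprint reads differed 30.2-fold (exact 95% interval 8.20 to 251). Sgsh, the lysosomal sulfohydrolase that degrades heparan sulfate, had RNA of 0.689 and 0.519 RPKM in KO-labelled cells and 5.65 and 5.30 RPKM in WT, and footprints of 0 and 2.42 RPKM in KO-labelled cells, from 0 and 1 reads, against 41.6 and 38.5 RPKM in WT, from 55 and 38 reads.

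Ace, the angiotensin-converting peptidase, was nearly absent from KO-labelled RNA, at 0.0411 and 0 RPKM, against 7.04 and 7.82 RPKM in WT. It had no footprint read in KO-labelled cells and 105 and 9.86 RPKM in WT, from 385 and 27 reads. The KO-labelled libraries lay below both WT libraries, but the WT replicates differed 10.7-fold in footprints at nearly equal RNA, the widest gap among the 30 genes with footprints in both WT libraries, whose median was 1.30-fold. Ace footprints were at least 57.1-fold lower in the KO-labelled libraries against the pooled floor of 3 reads, and at least 8.75-fold without WT replicate 1. Pdk2, a kinase that inhibits pyruvate dehydrogenase, had RNA of 0.498 and 0.445 RPKM in KO-labelled cells and 8.48 and 8.76 RPKM in WT but only 1 and 0 footprint reads in KO-labelled cells and 2 and 5 in WT, so the groups overlapped.

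The 3 membrane transporters had 2 footprint reads in KO-labelled cells in all. Abca9, an ABC transporter of the lipid-linked A subfamily, had RNA of 0.0742 and 0.153 RPKM in KO-labelled cells and 5.12 and 6.02 RPKM in WT. Its footprints were 0.564 and 0.749 RPKM in KO-labelled cells, 1 read in each library, against 36.3 and 38.5 RPKM in WT, from 155 and 123 reads. The ratio of 57.8, WT over KO, had an exact 95% interval of 15.9 to 480, which the 2 KO-labelled reads leave wide.

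Cftr, the chloride channel mutated in cystic fibrosis, had RNA of 0.0839 and 0.0227 RPKM in KO-labelled cells and 8.20 and 8.04 RPKM in WT. It had no footprint read in KO-labelled cells, against 12.3 and 9.40 RPKM in WT from 49 and 28 reads, at least 10.7-fold lower in the KO-labelled libraries. Slc22a18, a member of the organic cation transporter family, had RNA of 0.991 and 0.691 RPKM in KO-labelled cells and 6.65 and 7.19 RPKM in WT, with 0 and 0 footprint reads in KO-labelled cells and 12 and 11 in WT. Neither gene had overlapping groups, and for Slc22a18 the bound was 3.19-fold.

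Genes of the cytoskeleton and its scaffolds made up the largest group. Scin (scinderin, also called adseverin), which severs and caps actin filaments, had RNA of 0.471 and 0.548 RPKM in KO-labelled cells and 13.3 and 13.2 RPKM in WT. Its footprints were 0 and 1.70 RPKM in KO-labelled cells, from 0 and 1 reads, against 50.4 and 55.4 RPKM in WT, from 95 and 78 reads. WT replicates were close together and far above the single KO-labelled read, a WT over KO ratio of 72.0 (exact 95% interval 12.7 to 2859).

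Arhgef37, of a family of guanine nucleotide exchange factors, had RNA of 0.0740 and 0.430 RPKM in KO-labelled cells and 5.76 and 6.50 RPKM in WT. No footprint read was found in KO-labelled cells, against 26.5 and 24.3 RPKM in WT from 48 and 33 reads. Pdlim4, a PDZ and LIM domain protein of actin stress fibres, had RNA of 0.742 and 0.573 RPKM in KO-labelled cells and 10.4 and 11.2 RPKM in WT, with no footprint read in KO-labelled cells and 9.20 and 20.01 RPKM in WT from 8 and 13 reads. Its relative Pdlim1 had RNA of 0.196 and 0.245 RPKM in KO-labelled cells and 8.67 and 9.22 RPKM in WT. Pdlim1 likewise had no footprint read in KO-labelled cells, with 19 and 6 in WT.

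Slc9a3r2, a PDZ scaffold that binds membrane transporters, combined high WT RNA with few footprints. Its RNA was 0.369 and 0.621 RPKM in KO-labelled cells and 15.8 and 15.5 RPKM in WT, and its footprints were 0 and 0 RPKM in KO-labelled cells and 5.22 and 5.58 RPKM in WT, from 5 and 4 reads. Nid2, a basement membrane glycoprotein, had the lowest WT over KO footprint ratio among the 12 genes with at least 20 reads in each WT library. Nid2 RNA was 0.598 and 0.601 RPKM in KO-labelled cells and 6.03 and 5.36 RPKM in WT, and its footprints were 1.91 and 3.39 RPKM in KO-labelled cells, from 3 and 4 reads, against 7.40 and 13.1 RPKM in WT, from 28 and 37 reads. The groups did not overlap, and pooled reads differed 3.86-fold (exact 95% interval 1.77 to 9.99), an interval that overlaps that of C4b.

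Of the others in this group, 3 had no footprint read in KO-labelled cells. Pid1, a phosphotyrosine-interaction domain protein, had RNA of 0.903 and 0.970 RPKM in KO-labelled cells and 9.20 and 9.67 RPKM in WT, with 19 and 11 WT footprint reads. The sorting nexin Snx7 had RNA of 0.0177 and 0.0382 RPKM in KO-labelled cells and 6.01 and 6.48 RPKM in WT, with 13 and 15 WT footprint reads. RNA of Cav2, a caveolin of membrane invaginations, was 0.781 and 0.739 RPKM in KO-labelled cells and 6.35 and 5.45 RPKM in WT, and it had 7 and 6 WT footprint reads. Fam110c, whose human counterpart associates with microtubules, had RNA of 0.316 and 0.247 RPKM in KO-labelled cells and 5.88 and 6.97 RPKM in WT but footprints of 4.35 and 0 RPKM in KO-labelled cells against 4.51 and 4.83 RPKM in WT, a near-tie that rests on 2 reads.

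All 4 regulators of cell cycle, transcription and signalling lacked footprint reads in KO-labelled cells. Cdkn1c, the CDK inhibitor p57, had the highest WT RNA of the set and also the widest spread: 0.0532 and 0.288 RPKM in KO-labelled cells and 27.7 and 17.1 RPKM in WT. Its WT footprints were 18.98 and 8.47 RPKM and those in KO-labelled cells 0 and 0. The implied coding length of 180 bases is that of the smallest whole reads that fit, 3 and 1, so no fold is given. Rassf10, of the Ras association domain family, had RNA of 0.854 and 0.420 RPKM in KO-labelled cells and 17.8 and 17.9 RPKM in WT, and footprints of 0 and 0 RPKM in KO-labelled cells against 15.7 and 13 RPKM in WT, from 21 and 13 reads.

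Trib1, a pseudokinase that brings C/EBP alpha to its degradation, had RNA of 0.895 and 0.517 RPKM in KO-labelled cells and 7.83 and 7.81 RPKM in WT, with 6 and 7 WT footprint reads. Hes7, a basic helix-loop-helix repressor of the segmentation clock, had RNA of 0 and 0.0973 RPKM in KO-labelled cells and 5.41 and 6.12 RPKM in WT. A single footprint read, in WT replicate 1, was all it had, so its WT RNA came with almost no footprints at this depth.

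Other coding genes were thinly covered. Cstdc6, a stefin-like gene in a cluster of near-identical copies among which reads could be split, had RNA of 0.281 and 0.455 RPKM in KO-labelled cells and 9.73 and 12.7 RPKM in WT, and footprints of 0 and 0 RPKM in KO-labelled cells against 3.95 and 5.29 RPKM in WT, 1 read in each WT library. Tmem102, a transmembrane protein, had RNA of 0.449 and 0.789 RPKM in KO-labelled cells and 8.55 and 9.74 RPKM in WT, with 8 and 7 WT footprint reads and none in KO-labelled cells. The 2 remaining coding genes, both of multi-copy families, had no footprint read in any library. RNA of Xlr4b, of the X-linked lymphocyte-regulated family, was 0.170 and 0.504 RPKM in KO-labelled cells and 7.70 and 6.19 RPKM in WT, and RNA of Gm21297 was 0 and 0 RPKM in KO-labelled cells and 9.55 and 14.4 RPKM in WT.

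The 6 non-coding or unannotated genes had no footprints either. The lncRNA Snhg11, a snoRNA host gene, had RNA of 0.0446 and 0.103 RPKM in KO-labelled cells and 6.86 and 5.36 RPKM in WT. The other 3 lncRNAs had levels in the same range. Gm13710 was at 0.281 and 0 RPKM in KO-labelled cells and 5.74 and 6.62 RPKM in WT, Gm15283 at 0.162 and 0.249 RPKM in KO-labelled cells and 5.82 and 5.22 RPKM in WT, and Gm33370 at 0.777 and 0.960 RPKM in KO-labelled cells and 8.45 and 7.43 RPKM in WT. Gm24125, listed as a snoRNA, was at 0.396 and 0.857 RPKM in KO-labelled cells and 26.3 and 16.9 RPKM in WT, and Gm13431 at 0.132 and 0.143 RPKM in KO-labelled cells and 6.54 and 7.23 RPKM in WT. Their footprint values of 0 in all libraries are what the table gives for most genes of these kinds: 11 of 947 lncRNAs and 0 of 192 snoRNAs in it had any footprint read, against 11001 of 11556 protein-coding genes.

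TE in WT cells varied widely across the set. Deposited TE in WT, averaged over both libraries, had a median of 1.70 over the 31 genes with footprints, with quartiles of 0.908 and 3.74 and a range of 0.280 to 28.6. Over all 6288 genes with at least 5 RPKM of WT RNA and footprint reads the median was 1.90, with quartiles of 1.02 and 3.47, and over the 4254 of these with mean WT RNA under 30 RPKM it was 2.13. The set therefore held 13 genes above and 18 genes below the first of these medians. Deposited TE in WT was high for Lpl and Epha2 and low for Slc9a3r2 and Hes7, for Hes7 on 1 footprint read. Footprint RPKM is per coding length and RNA RPKM per length of all exons, for Lpl an implied 1422 and 10478 bases. The ranking of genes by TE therefore depends on these lengths as well and is not a count of ribosomes per mRNA.

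Deposited TE compared between the groups lay on either side of WT. Both KO-labelled values lay below both WT values in 21 genes, above them in 13, and overlapped in 5 (Treml4, Pdk2, Nid2, C4b and Cd300e). Over all 16442 genes of the table, 34.4% lay below and 14.1% above in the same way, and since TE holds the RNA that chose the set, nothing is read from these counts. The 13 held all 8 genes without any footprint read and, besides them, Cdkn1c, Hes7, Slc9a3r2, Cstdc6 and Fam110c. For the 8, deposited TE is 1 over RNA RPKM + 1, and it was 0.510 to 1 in KO-labelled cells and 0.0366 to 0.161 in WT with no ribosome counted. The authors' deposited table nonetheless gives p-values under 0.05 for 8 of these 8 genes, from 4.17e-05 for Gm13431 to 0.0114 for Gm24125. Over the whole of the authors' deposited table, 1662 of the 5291 genes without a footprint read have such a p-value, 31.4%, against 20.9% of all 16442 genes.

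For the 18 genes with footprint reads in WT alone, deposited TE in KO-labelled cells was between 0.502 and 1, because KO-labelled RNA under 1 RPKM fixes it there. Genes with WT TE above 1 then come out lower in KO-labelled cells. Only Lpl, C4b, Nid2 and Epha2 had at least 5 footprint reads in the KO-labelled libraries together, and for them TE was also taken as footprint RPKM over RNA RPKM with nothing added, a calculation chosen after the data were seen.

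Lpl had deposited TE of 8.07 and 12.8 in KO-labelled cells and 24.2 and 32.9 in WT. With nothing added, its TE was 20.7 and 30.3 in KO-labelled cells and 26.9 and 36.4 in WT. The deposited values were separated, whereas the plain ratios overlapped, and the KO over WT ratio was 0.360 as deposited and 0.808 with nothing added (95% interval 0.439 to 1.37). Epha2 had deposited TE of 5.23 and 1.46 in KO-labelled cells and 10.7 and 8.64 in WT, against 21.0 and 2.30 in KO-labelled cells and 12.4 and 9.85 in WT with nothing added, where the KO-labelled replicates lay on either side of WT. Its KO over WT ratio was 0.288 as deposited and 0.844 with nothing added (95% interval 0.336 to 1.76). For each of these genes the deposited ratio compares library values averaged on a log scale. The ratio with nothing added instead compares pooled reads. For Epha2, whose KO-labelled replicates lay far apart, the shift between the ratios therefore mixes pooling with leaving out the added value.

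C4b changed side. Its deposited TE was 2.33 and 3.19 in KO-labelled cells and 2.62 and 3.94 in WT, a KO over WT ratio of 0.848, whereas with nothing added it was 6.30 and 6.66 in KO-labelled cells and 2.82 and 4.34 in WT, a ratio of 1.83 (95% interval 0.863 to 3.42). Nid2 was higher in both forms, with a ratio of 1.37 as deposited and 2.46 with nothing added (95% interval 0.953 to 5.37). Each of the 4 intervals with nothing added includes 1.

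**Figure D3:**
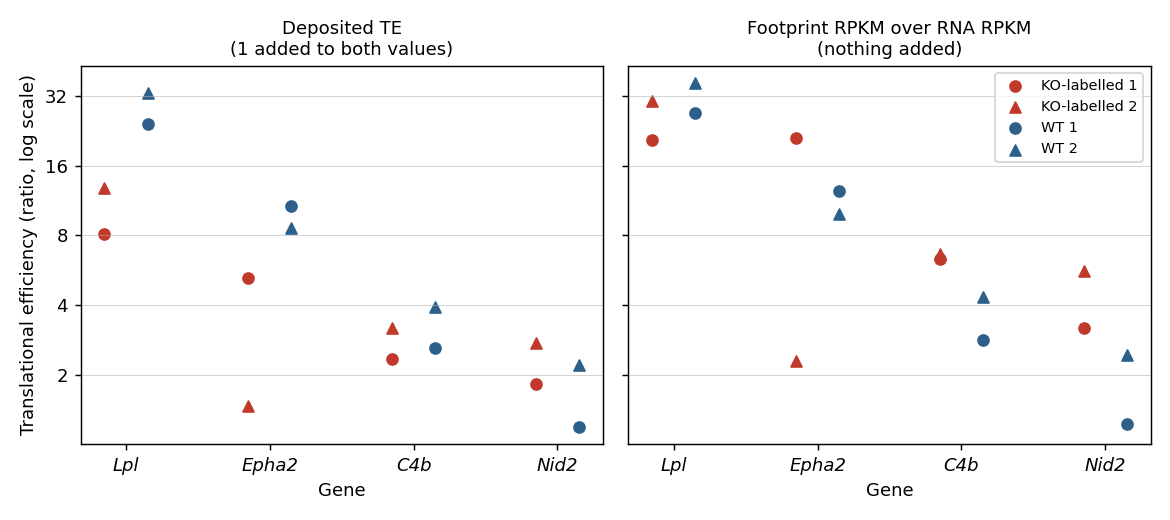
TE of the 4 genes with at least 5 footprint reads in the KO-labelled libraries, on a log axis, as deposited (left) and with nothing added (right); red is KO-labelled, blue is WT. Lpl in KO-labelled cells stands at 8.07 and 12.8 on the left and at 20.7 and 30.3 on the right, beside WT values that shift little.

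Summed over the 31 genes with footprints, the ratio of footprint reads to RNA reads in KO-labelled over WT cells was 0.861 (95% interval 0.642 to 1.13). It was 0.828 without Lpl (0.584 to 1.14) and 0.976 without Ace (0.727 to 1.28). At the footprint to RNA ratio of each gene in WT, 57.0 footprint reads would have been counted in the KO-labelled libraries, and 52 were. For each of the 18 genes with none, that number was at most 1.35 reads, under the 3 reads that a count of 0 allows. A lower TE of any 1 of these genes was therefore not detectable at this depth. Summed over the 18 genes the number was 8.24 reads against 0 counted. Having no read is what put these genes together, so nothing is read from that sum.

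**Figure D4:**
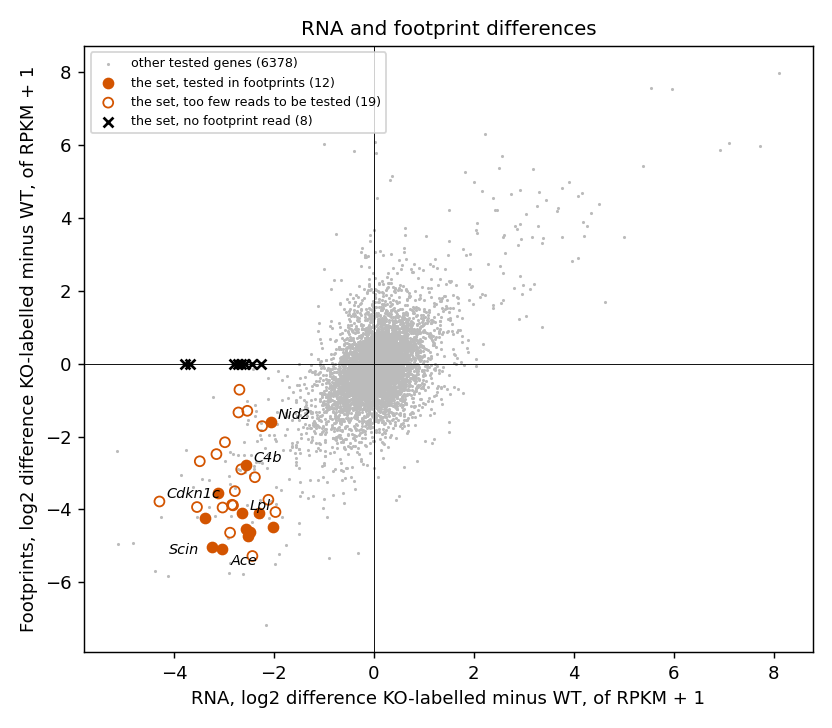
Differences of KO-labelled minus WT in RNA (horizontal) and footprints (vertical), both on the log2(RPKM + 1) scale, for 6378 other tested genes (grey) and the set (orange circles, black crosses). The set lies at the left by its selection, and its genes with footprints lie between -5.28 and -0.71 on the vertical axis, while the 8 crosses lie at 0 because they have no footprint read.

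The position of the genes was not used by the selection. Placed among the genes of the table in the order of the RefSeq annotation (GRCm38.p6), 38 genes had 74 distinct neighbours outside the set, and 1 pair, Cdkn1c and Slc22a18, stood side by side, in a domain known for imprinting. Of the 32 neighbours tested in RNA with limma, 15 were lower, 12 were higher and 5 were not called in KO-labelled cells, beside 27.7% of all 6390 genes called lower and 33.1% called higher. Frrs1 next to Snx7, St7 next to Cftr and Lta4h next to Hal were among the lower ones. Lta4h, the hydrolase that makes leukotriene B4, had RNA of 95.4 and 84.4 RPKM in KO-labelled cells and 228 and 242 RPKM in WT, and Cstdc5 beside Cstdc6 had 113 and 156 RPKM in KO-labelled cells and 994 and 953 RPKM in WT. Neighbours also went the other way. Rps20 beside Gm24125, a ribosomal protein gene chosen after its values were seen, was called higher, at 39.6 and 56.7 RPKM in KO-labelled cells and 22.0 and 20.1 RPKM in WT. Rab37 beside Cd300e, chosen likewise and not among the genes tested, had 25.9 and 24.1 RPKM in KO-labelled cells and 2.96 and 2.70 RPKM in WT.

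Promoter sequences of 26 of the genes, 30 windows in all, were taken from RefSeq (GRCm38.p6), each with 250 bases before and 50 bases after the annotated start. They are shown for Hal, Scin and Cftr, the genes with the highest WT RNA among those with at least 20 footprint reads in each WT library and a single window. Capitals mark letters searched on both strands. CCACCC is a C-rich core of the kind RREB1 is known to bind. TGANTCA is a loose form of the AP-1 site that allows any base in the middle, so a match need not be an AP-1 site. GAGGAA was searched for PU.1, TTGCNNAA for C/EBP and TATAAA for the TATA box. Hal lies at chr10:93488518-93488817 on the plus strand, Scin at chr12:40134179-40134478 on the minus strand and Cftr at chr6:18170437-18170736 on the plus strand.
Hal: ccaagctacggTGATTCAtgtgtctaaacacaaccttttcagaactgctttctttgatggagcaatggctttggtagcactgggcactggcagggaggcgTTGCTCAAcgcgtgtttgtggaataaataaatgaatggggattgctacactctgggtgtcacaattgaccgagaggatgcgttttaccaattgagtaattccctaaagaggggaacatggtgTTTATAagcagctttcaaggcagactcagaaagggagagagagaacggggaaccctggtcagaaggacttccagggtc
Scin: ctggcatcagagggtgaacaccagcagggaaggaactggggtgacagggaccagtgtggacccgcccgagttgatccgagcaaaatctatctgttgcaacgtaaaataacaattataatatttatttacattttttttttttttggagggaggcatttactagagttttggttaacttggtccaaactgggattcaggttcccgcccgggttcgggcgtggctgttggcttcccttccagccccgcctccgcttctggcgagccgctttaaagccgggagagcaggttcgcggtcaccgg
Cftr: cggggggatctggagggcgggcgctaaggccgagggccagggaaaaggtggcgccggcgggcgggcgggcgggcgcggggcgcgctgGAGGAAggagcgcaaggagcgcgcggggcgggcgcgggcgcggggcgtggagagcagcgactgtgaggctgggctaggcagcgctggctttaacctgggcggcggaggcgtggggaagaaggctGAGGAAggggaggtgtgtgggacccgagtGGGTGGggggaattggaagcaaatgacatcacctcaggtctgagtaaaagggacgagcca
Hal held 1 match each to the AP-1, C/EBP and TATA letters, Cftr 1 CCACCC and 2 PU.1 matches, none of them sharing a base, and Scin none. Over the set, CCACCC was found in 15 of 30 windows, against 31.6% of all 32544 windows of this length and 35.6% of the 6597 windows of genes with at least 5 RPKM of WT RNA. The PU.1 letters GAGGAA were in 30.0% of the set's windows, against 28.1% of all and 27.6% of those of genes with WT RNA. For the loose AP-1 letters, TGANTCA was in 5 of the set's 30 windows, 16.7%, against 7.79% of all and 4.88% of those with WT RNA. For C/EBP, TTGCNNAA was also in 5 windows, 16.7%, against 10.8% and 9.06%. Such small counts were not tested, and some genes have more than 1 window. The TATA letters were in 2 of the set's windows, 6.67%, below the 13.6% of all and next to the 6.65% of those with WT RNA. The windows of the set had a median GC content of 61%, against 53.0% over all and 60.3% over genes with WT RNA. Matches describe letters and not binding.

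Related genes outside the set were counted in RNA with the same limma fit, for each list of related genes that holds a gene of the set. This fit covered only the 6390 genes with enough footprint reads, so list genes with RNA but few footprints were not counted. Of 33 other monocyte and macrophage genes (the list of Cd300e) 24 were lower, 8 higher and 1 not called in KO-labelled cells, with a median log2 difference of -1.20, beside a median of 0.0431 over all tested genes. Of 12 other complement and coagulation genes (C4b) 10 were lower, 1 was higher and 1 was not called (median -1.40). F13a1, a clotting transglutaminase, had RNA of 45.4 and 55.2 RPKM in KO-labelled cells and 303 and 317 RPKM in WT. F7, coagulation factor VII, was the one that rose among the 4 highest, at 158 and 174 RPKM in KO-labelled cells and 120.1 and 120.5 RPKM in WT.

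Of 29 other Fc, C-type lectin and pattern receptors (Treml4) 20 were lower, 6 higher and 3 not called (median -0.695). Fcgr3, a low-affinity IgG receptor, had RNA of 300.2 and 252 RPKM in KO-labelled cells and 627 and 642.5 RPKM in WT, while the lectin Mgl2 rose to 300.4 and 281 RPKM in KO-labelled cells, against 59.6 and 58.7 RPKM in WT. Of 14 other genes of lipid and eicosanoid metabolism (Lpl) 8 were lower, 3 higher and 3 not called (median -0.598), among them Hpgd, the enzyme that inactivates prostaglandins, at 335 and 351.5 RPKM in KO-labelled cells and 1789 and 1845 RPKM in WT. These lists leaned the same way as the gene that placed them here, with exceptions in each. Over all 6390 genes tested, 27.7% were called lower and 33.1% higher. The lists are not separate from each other, since Fcgr3 and F13a1 also stand in the monocyte and macrophage list.

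The remaining lists had no common direction, and stand beside the same 27.7% called lower and 33.1% called higher over all genes tested. Of 27 other actin regulators and guanine nucleotide exchange factors (Arhgef37, Scin and Pdlim1) 11 were lower, 5 higher and 11 not called (median -0.158). Gsn, gelsolin, an actin-severing relative of scinderin, rose to 215 and 209 RPKM of RNA in KO-labelled cells, against 96.7 and 100.5 RPKM in WT, the opposite direction to Scin. Of 24 G protein subunits, regulators and receptors (Hcar2) 11 were lower, 9 higher and 4 not called. Of 22 ion channels and solute transporters (Abca9, with Cftr and Slc22a18 not in the list) 8 were lower, 8 higher and 6 not called. Of 10 other G1 cyclins and CDK inhibitors (Cdkn1c) 1 was lower, 4 were higher and 5 were not called. The list taken for imprinted genes held Cdkn1c but not Slc22a18, and 2 others of it were tested. Igf2r, the receptor that clears IGF2, was higher, at 1.995 and 1.98 RPKM of RNA in KO-labelled cells against 0.298 and 0.207 RPKM in WT. Aggf1 was not called.

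Marker lists of several cell types also stood apart between KO-labelled and WT cells. Counts of called genes below stand beside 27.7% lower and 33.1% higher over all 6390 genes tested. The sum of RNA over 48 monocyte and macrophage genes, Cd300e among them, was 6844 to 6916 RPKM in KO-labelled cells and 19900 to 19940 RPKM in WT, of which Chil3 alone made up 291 to 313 RPKM in KO-labelled cells and 10530 to 10540 RPKM in WT. The other 47 genes summed to 6553 to 6604 RPKM in KO-labelled cells and 9362 to 9408 RPKM in WT. This remainder mixes large genes of opposite direction. Slpi had 3312 and 3320 RPKM in KO-labelled cells and 730 and 736 RPKM in WT. Lyz2 had 920 and 819 RPKM in KO-labelled cells and 5515 and 5526 RPKM in WT. For 22 neutrophil granule genes the sum was 13360 to 13840 RPKM in KO-labelled cells and 20010 to 20940 RPKM in WT, and of 18 tested 12 were lower and 2 higher. For 7 B cell genes the sum was 31.4 to 33.6 RPKM in KO-labelled cells and 41.7 to 44.2 RPKM in WT, and its direction rested on Cd79b, at 25.2 and 22.7 RPKM in KO-labelled cells and 41.3 and 39.1 RPKM in WT. The other 6 B cell genes summed to 8.34 to 8.71 RPKM in KO-labelled cells and 2.64 to 2.94 RPKM in WT, higher in KO-labelled cells. For 7 megakaryocyte genes the sum was 34.5 to 36.4 RPKM in KO-labelled cells and 52.8 to 53.1 RPKM in WT, and its direction rested on Gng11, at 10.6 and 10.5 RPKM in KO-labelled cells and 50.5 and 50.4 RPKM in WT. The other 6 megakaryocyte genes summed to 23.9 to 25.8 RPKM in KO-labelled cells and 2.28 to 2.72 RPKM in WT, again higher in KO-labelled cells. Of the single B cell gene tested 1 was lower, and of 3 megakaryocyte genes 1 was lower and 2 were higher.

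Other marker lists had higher sums in KO-labelled cells. Genes of mast cells, basophils and eosinophils, 15 in number, summed to 625 to 641 RPKM in KO-labelled cells and 91.3 to 94.0 RPKM in WT, and 17 T and NK cell genes to 376 to 444 RPKM in KO-labelled cells and 20.7 to 21.4 RPKM in WT. Without Cpa3, a mast cell protease at 221 and 212.5 RPKM in KO-labelled cells and 0.758 and 0.835 RPKM in WT, the other 14 genes of the first list summed to 413 to 420.1 RPKM in KO-labelled cells and 90.5 to 93.2 RPKM in WT. Most of the T and NK cell sum was Nkg7, a granule protein of cytotoxic cells, at 426 and 356 RPKM in KO-labelled cells and 15.0 and 14.6 RPKM in WT. The other 16 genes of that list summed to 17.9 to 20.2 RPKM in KO-labelled cells and 6.03 to 6.41 RPKM in WT. The sum of 14 erythroid genes was 431 to 525 RPKM in KO-labelled cells and 82.4 to 90.9 RPKM in WT. In these 3 lists 5 of 6, 1 of 1 and 1 of 1 tested genes were higher and 0 were lower. Over all 6390 genes tested, 33.1% were higher and 27.7% lower. The T and NK cell and erythroid counts each rest on 1 gene, Nkg7 and Tfrc, and do not describe their lists.

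Sums differed less for 14 dendritic cell and MHC class II genes (283.5 to 297 RPKM in KO-labelled cells, 169.6 to 171 in WT), 7 genes of stroma and endothelium (165 to 201 and 118.5 to 122) and 19 genes of stem and progenitor cells (975 to 979 and 792 to 822). Of the tested genes 6 of 7, 2 of 4 and 11 of 17 were higher in these lists, and 1, 1 and 0 were lower. The shares over all 6390 genes tested were 33.1% higher and 27.7% lower. Without the most abundant gene of its list, the sum for dendritic cells and MHC class II (without H2-DMb1) was 211 to 215 RPKM in KO-labelled cells and 79.7 to 82.9 RPKM in WT, and that for stroma and endothelium (without Vim) was 76.4 to 83.4 RPKM in KO-labelled cells and 17.8 to 18.8 RPKM in WT. The stem and progenitor sum without Spi1, itself not called, was 677 to 690 RPKM in KO-labelled cells and 475 to 492.5 RPKM in WT. None of the list genes found in the table was at 0 RNA in all 4 libraries. Several lists were only partly found there, so their sums leave markers out. Found were 7 of 15 B cell, 7 of 15 megakaryocyte and 7 of 19 stroma and endothelium genes. Of the mast cell, basophil and eosinophil list 15 of 21 were found. The part of such marker differences in the low RNA of the 39 genes was not tested.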

How the data were processed

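Ribosome footprints and input RNA were measured in 2 KO-labelled and 2 WT libraries. All values come from 1 deposited table covering 16442 genes. The tools listed by the submitters' processing notes are HISAT2 2.1.0, featureCounts, DESeq2 and CASAVA, without their roles. The build listed there, hg38, is human while the symbols are mouse, and no coordinates of the table were used. The footprint values deposited by the authors are RPKM with 1 added, as read from the values. The deposited translational efficiency is the ratio of that value to an RNA RPKM with 1 added, so RNA was taken as footprint value over efficiency, minus 1. A p-value per gene, called adjusted per the file headers, is quoted only as the authors' own.

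Whole reads were recovered from the steps of RPKM within 0.002 reads: for 10536 of 10536 genes with footprints in at least 2 libraries, and for 97.35% of 15988 genes with RNA. They are the smallest whole numbers that fit, and on simulated footprint reads 95.4% of genes came back exactly. The planned count test was not used, because the deposited unit is RPKM. Instead limma 3.58.1 (R 4.3.3) with a mean-variance trend was run on log2(RPKM + 1), a scale that understates changes of low genes, two-sided, with Benjamini-Hochberg adjusted p-values over the 6390 genes with at least 20 CPM of recovered footprint reads in at least 2 libraries. On simulated reads with the same spread in every library it found 90% of 4-fold and 100% of 8-fold rises in KO-labelled cells. Only genes with several expected reads in the smallest library were changed there. Losses towards 0 reads, as in this set, were not simulated, so these shares do not apply to the set. A fold against 0 reads is a bound against 3 reads pooled over the group. Exact 95% intervals of read ratios cover counting error only. Intervals of TE ratios take RNA reads as fixed, so they leave out the counting error of RNA. The spread behind each p-value is that between these libraries. Same-numbered libraries of the 2 groups did not deviate together (r = 0.0226 in footprints and -0.335 in RNA), so numbers were not used as pairs. The rule for named genes asked for every gene of the set, with footprints of the 12 highest in WT RNA and of those with at least 20 footprint reads in each WT library, and up to 4 genes of each list by mean RNA. The genes and lists were chosen with earlier results of these data known. Of the genes nearest the thresholds, 1 is not reported here.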

Additional observations from a re-analysis of the deposited data

How the results depend on the processing

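Footprint calls rested on each library and on the filter. Of 6390 genes 68 were called, 6 of them in the set. With no filter on low values limma called 0 genes and 0 of the set (1674 genes at an unadjusted p under 0.05). With the replicate number as a block, 32 genes and 1 of the set were called. Limma-voom on recovered reads, added after seeing the data, called 72 genes and 3 of the set; the planned count test was not run because the unit is RPKM. Leaving out 1 library gave 0 to 1089 genes and 0 to 10 of the set: 0 without WT replicate 1 (395 at an unadjusted p under 0.05) and 0 without WT replicate 2 (420), 331 without KO replicate 1 and 1089 without KO replicate 2. Other pseudocounts and TMM scaling gave 66 to 87 genes. Over the 12 tested genes of the set and the alternatives, the footprint difference was lower in KO-labelled cells throughout, in 28 instances no longer past the threshold and in 8 newly past it.

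RNA calls numbered 3882 of 6390 genes, 6286 with no filter, 6497 when genes were kept from an RNA RPKM of 1 in 2 libraries upwards (added after seeing the data), 3479 with the replicate block and 2682 to 3919 without 1 library. Crossing the replicate numbers, a pairing chosen after seeing the data because RNA deviations of same-numbered libraries correlated at -0.335, gave 4396 calls.

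The number of genes meeting the rule moved from 39 to 76 with a WT minimum of 4 for RNA RPKM + 1 and to 9 with 11, to 18 with a KO maximum of 1.5 and to 76 with 3, and it was 40 to 48 without 1 library. Footprint depth in the KO-labelled libraries limits every statement on the 18 genes with no read there.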

Other observations

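Genes chosen after their values were seen give further context in RNA. Ascl2, a transcription factor gene of the same imprinted domain as Cdkn1c and Slc22a18, had 2.27 and 2.06 RPKM in KO-labelled cells and 17.1 and 18.6 RPKM in WT, whereas Osbpl5 of that domain had 3.35 and 3.16 RPKM in KO-labelled cells and 0.362 and 0.291 RPKM in WT. Abca6, beside Abca9, had 0.141 and 0.174 RPKM in KO-labelled cells and 2.41 and 2.47 RPKM in WT. Slc26a11, beside Sgsh, had 0.226 and 0.195 RPKM in KO-labelled cells and 1.75 and 2.36 RPKM in WT. Stk19-ps1, beside C4b, had 3.99 and 2.61 RPKM in KO-labelled cells and 21.5 and 19.2 RPKM in WT. Cebpa, which encodes the factor that Trib1 brings to its degradation, had 8.32 and 13.1 RPKM in KO-labelled cells and 4.74 and 3.03 RPKM in WT.

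Y-linked genes were uneven between the groups. Ddx3y had RNA of 11.9 and 13.6 RPKM in KO-labelled cells and 0.0805 and 0.0847 RPKM in WT, and Uty 3.57 and 3.18 RPKM in KO-labelled cells and 0.0107 and 0.0281 RPKM in WT. Eif2s3y had 26.1 and 26.3 RPKM in KO-labelled cells and 21.9 and 21.5 RPKM in WT, and Kdm5d 1.13 and 1.35 RPKM in KO-labelled cells and 0.835 and 0.773 RPKM in WT.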
